A study of Danio rerio with 2 samples.

Results

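The cells described here are the periderm-like cells of the zebrafish tailbud, the flat outer layer that covers the embryo. They were selected on measured values, from single-cell RNA-seq of 1 stag2b mutant library and 1 wild-type library. A barcode was kept if it held at least 1000 unique molecular identifiers (UMIs, each standing for 1 captured transcript) and at most 15% mitochondrial UMIs. It was then chosen by 3 values: krt17, krt92, cyt1, cyt1l and agr1 together had at least 10 UMIs, at least 3 of these 5 genes were detected, and the basal epidermal gene tp63 had at most 1 UMI. The rule found 358 barcodes in the stag2b mutant and 437 in wild type, 795 of the 44330 kept barcodes in all.

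The mutant embryos carried the NZ207 allele of stag2b, which encodes a variable subunit of the cohesin ring, and the study treats them as homozygous mutants (stag2b-/-). The wild-type embryos were labelled as the AB strain. Tailbuds of both genotypes were dissected at 16 h post-fertilization, pooled from many embryos and dissociated with collagenase and trypsin, and no treatment was given. The comparison asks how loss of a cohesin subunit changes tailbud cells. With 1 pooled library per genotype there is no replicate, so the intervals below cover counting error only, no p-value is given, and a difference between the libraries cannot be told apart from a difference between the genotypes.

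The periderm derives from the enveloping layer of the blastula and stays outside the tp63-positive basal epidermal cells until it is replaced later in life. Its cells are joined by tight junctions and desmosomes, are filled with keratin filaments that plakin proteins tie to the membrane, and carry actin-rich microridges on the outer surface. Grainyhead-like and Krüppel-like factors are known regulators of this epithelium. Since the rule used them, the 5 periderm-enriched genes of the rule are given as a description only.

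The 2 libraries were similar in depth. The files held 26360 barcodes for the stag2b mutant and 18704 for wild type, of which 26036 in the stag2b mutant and 18294 in wild type were kept, with median counts of 14005 UMIs in the stag2b mutant and 15970.5 UMIs in wild type. The selected barcodes had medians of 12836 UMIs in the stag2b mutant and 10651 UMIs in wild type. The libraries shared 120 kept barcode sequences, none of which was selected in both. Scrublet, which scores barcodes by their likeness to simulated doublets, called 9.49% of kept stag2b mutant barcodes and 4.37% of wild-type barcodes, and 45 of the 358 selected ones in the stag2b mutant and 29 of the 437 in wild type. stag2b itself stood at 56.7 CPM in the selected stag2b mutant barcodes and 105 CPM in wild type, where CPM is UMIs per 1000000 UMIs, both summed over the barcodes of a set.

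The label was checked against genes outside the rule, and the selected barcodes proved to be a mixture. Periderm genes such as the claudin gene cldne and the periplakin gene ppl were low in the barcodes with few marker UMIs. In the 128 stag2b mutant and 122 wild-type barcodes with 10 to 29 marker UMIs, cldne stood at 72.3 CPM in the stag2b mutant and 8.10 CPM in wild type. In the 84 stag2b mutant and 116 wild-type barcodes with 300 or more marker UMIs, it stood at 1378 CPM in the stag2b mutant and 612 CPM in wild type. ppl followed, at 38.1 and 1303 CPM in these strata in the stag2b mutant and 11.8 and 593 CPM in wild type.

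A claudin of the basal layer did not follow these genes. cldni had 1891 CPM in the stag2b mutant barcodes with at least 2 tp63 UMIs and 2323 CPM in those of wild type. In the strata that start at 10, 30, 100 and 300 marker UMIs it had 637, 759, 115 and 12.3 CPM in the stag2b mutant and 670, 1582, 656 and 69.5 CPM in wild type. It was thus highest at 30 to 99 marker UMIs in both libraries and lowest in the top stratum. At least 2 cldni UMIs were found in 90 (25.1%) of the selected stag2b mutant barcodes and 131 (29.98%) of the wild-type ones. The barcodes just inside and just outside the threshold were alike in being low for periderm genes. cldne had 35.8 CPM in the 40 stag2b mutant barcodes with 10 to 12 marker UMIs and 5.71 CPM in the 47 with 7 to 9 that met the rest of the rule, and 0 and 4.36 CPM in the 31 and 29 wild-type barcodes of the same kinds.

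For this reason each result is given for all selected barcodes and, beside it, for those in which the 5 markers made up at least 2% of all UMIs, called keratin-rich here. This second set was defined after the values were seen. It held 126 stag2b mutant and 174 wild-type barcodes, with cldni at 14.7 CPM in the stag2b mutant and 38.1 CPM in wild type, where 1 barcode held 93.0% of its UMIs. The keratin-rich barcodes were shallower than the rest, with medians of 6238 UMIs in the stag2b mutant and 4430.5 UMIs in wild type. The markers made up a median of 5.52% of their UMIs in the stag2b mutant (quartiles 3.31% and 10.1%) and 10.8% in wild type (quartiles 6.23% and 13.2%).

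**Figure D1:**
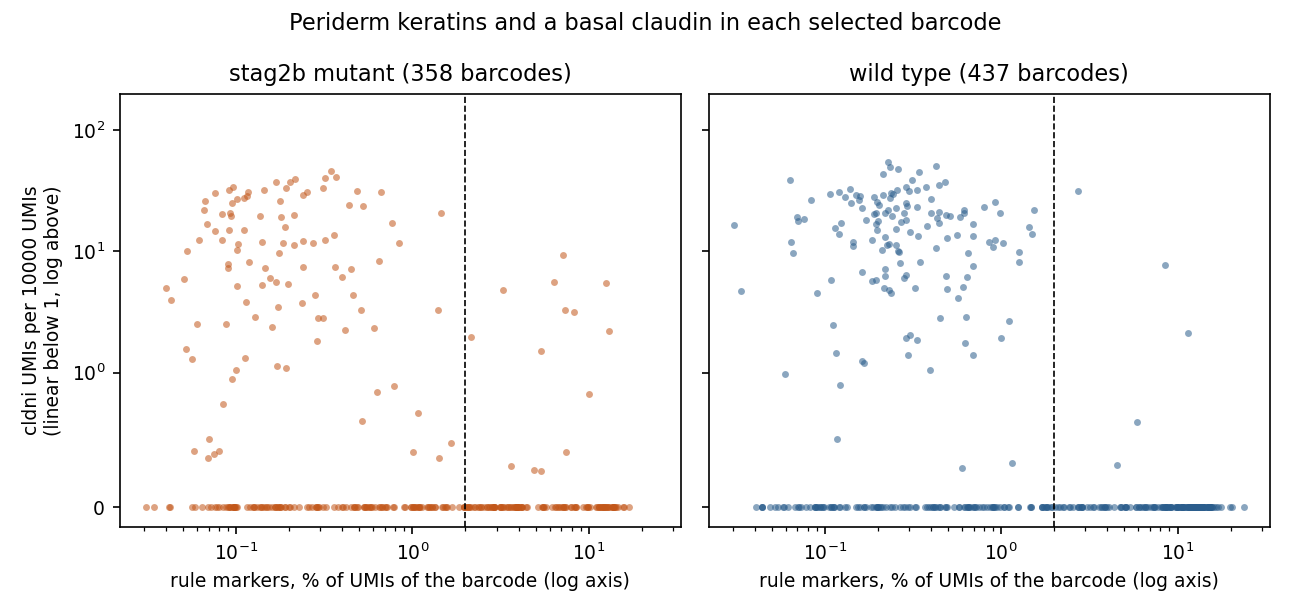
Each point is a selected barcode, plotted by the share of its UMIs from the 5 rule markers (x axis, percent, log scale) and its cldni UMIs per 10000 UMIs (y axis, linear below 1 and log above), for the stag2b mutant (left, 358 barcodes) and wild type (right, 437 barcodes). Right of the dashed line at 2% nearly all barcodes lack cldni, and left of it many carry it.

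Other lineages contributed to the selected barcodes too. A list of 57 genes of neuromesodermal progenitors, somites, neural tube, notochord and blood summed to 4138 CPM in the selected stag2b mutant barcodes and 4324 CPM in wild type, and to 1963 CPM in the stag2b mutant and 2373 CPM in wild type in the keratin-rich ones. The other kept barcodes had 7206 CPM of these genes in the stag2b mutant and 7833 CPM in wild type. The ionocyte factor foxi3a was seen in 19 selected stag2b mutant barcodes and 20 wild-type ones, at 50.8 CPM in the stag2b mutant and 55.5 CPM in wild type over the set. Among the keratin-rich barcodes it had 3 UMIs in the stag2b mutant and 0 in wild type, and the sodium pump subunit gene atp1b1b had 0 in both. Of 6 listed hatching gland genes 3 could be measured, ctslb, cd63 and klf17. ctslb had 0.203 CPM in the stag2b mutant and 0.348 CPM in wild type, against 28.4 CPM in the stag2b mutant and 17.9 CPM in wild type in the other kept barcodes. The 3 summed to 133 CPM in the stag2b mutant and 138 CPM in wild type, nearly all from cd63 and klf17, and klf17 is also a periderm marker. In the other kept barcodes they summed to 160.1 CPM in the stag2b mutant and 147 CPM in wild type. A list of yolk syncytial layer and liver-type genes summed to 5.69 CPM in the stag2b mutant and 9.40 CPM in wild type.

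The selected barcodes made up a smaller share of the stag2b mutant library. They were 1.37% of kept barcodes in the stag2b mutant (exact Clopper-Pearson 95% interval 1.24% to 1.52%) and 2.39% in wild type (2.17% to 2.62%). Keratin-rich barcodes were 0.484% of the stag2b mutant library (0.403% to 0.576%) and 0.951% of the wild-type library (0.816% to 1.103%). With the markers at 5% of UMIs or more, 68 barcodes (0.261%) remained in the stag2b mutant and 141 (0.771%) in wild type. The rule is a UMI threshold, and the 5 markers differed outside the selected barcodes too. In the other kept barcodes they summed to 229 CPM in the stag2b mutant and 483 CPM in wild type. Barcodes with at least 2 tp63 UMIs had a median of 20 marker UMIs in the stag2b mutant and 54 in wild type. The part of this background in the shares was not tested.

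The basal layer differed less. Barcodes with at least 2 tp63 UMIs made up 9.59% of the stag2b mutant library (9.24% to 9.96%) and 9.45% of the wild-type library (9.03% to 9.88%). The intervals of the libraries do not overlap for the 3 definitions of the periderm group given here and do for the basal one. Variation between dissections was not measured with 1 library each, and how much surface layer each pool carried was not tested.

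**Figure D2:**
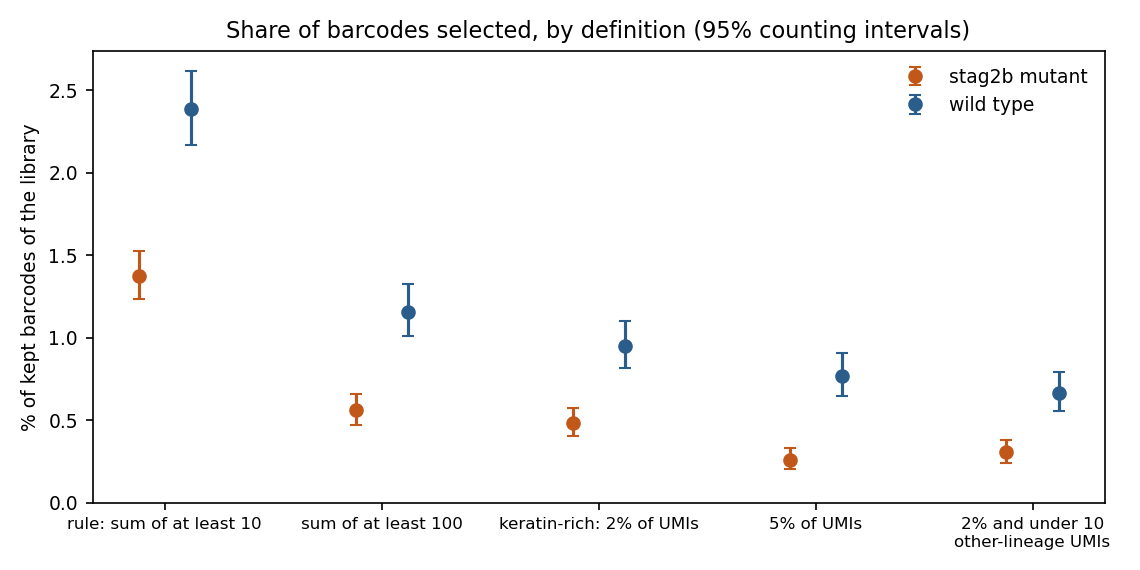
Share of kept barcodes of each library (y axis, percent, from 0) that met each of 5 definitions of the periderm group (x axis), with the stag2b mutant left of wild type and bars for exact 95% counting intervals. The stag2b mutant share is below the wild-type share under all 5 definitions, from 1.37% against 2.39% for the rule to 0.261% against 0.771% for markers at 5% of UMIs.

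The genes that set the selected barcodes apart from the rest were those of a keratinized surface epithelium. The 12 genes with the highest ratio to all other kept barcodes, ranked by the smaller ratio of the 2 libraries among genes outside the rule with at least 200 CPM in both, included icn2, an ictacalcin of the S100 calcium-binding family, at 1020 CPM in the stag2b mutant and 1042 CPM in wild type, against 4.41 CPM in the stag2b mutant and 5.12 CPM in wild type in the other barcodes. The annexin genes anxa1c and anxa1b, the calpain gene capn9, the S100 gene s100v1, eppk1 (epiplakin), ppl, cldne and the urate oxidase gene uox were also among them, as were zgc:193505 and si:ch211-157c3.4. Their ratios to the other barcodes were between 112.7 and 300.3. These ratios are a description with no test, since the same barcodes were chosen by genes that vary with these.

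Against the basal cells, 105 of 2759 genes with at least 50 CPM on one side were at least 2-fold higher in the selected barcodes in both libraries (3.81%) and 227 were at least 2-fold lower (8.23%). The keratin list had 6 of 7 measured members among the higher genes, the annexin and S100 list 11 of 13 and the desmosome list 5 of 13. The tight junction list was split, with 2 higher and 2 lower of 9. The periderm transcription factor list had 0 higher and 1 lower of 5. Over the genes of all lists, the rule markers included, 33 of 201 were higher and 26 lower. The basal epidermis list, which includes tp63, had 9 of 10 among the lower genes and none among the higher. Since tp63 defined both sets, its own place was fixed, and these counts are a description with no test. krt4, a keratin gene of both layers, was 6.62-fold the basal level in the stag2b mutant and 4.92-fold in wild type, and krt5 was 21.2-fold in the stag2b mutant and 12.8-fold in wild type. The adhesion genes cdh1 (E-cadherin) and epcam were below the basal level, at 0.534 and 0.591 of it in the stag2b mutant and 0.430 and 0.472 in wild type.

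For the comparison of genotypes, 3011 genes reached 50 CPM in at least one library, with a median log2 ratio of stag2b mutant over wild type of 0.10. A gene was counted as higher or lower if it lay at least 2-fold from that median gene. 114 genes (3.79%) were higher in the stag2b mutant and 57 (1.89%) lower. For the keratin-rich barcodes 2742 genes were tested with a median of 0.17, and 315 (11.5%) were higher and 90 (3.28%) lower. Of the 114 higher genes 73 were also higher among the 315, and of the 57 lower genes 30 were also lower among the 90. A ratio below is the log2 ratio of CPM, stag2b mutant over wild type, with its 95% counting interval where one is given. For the ratio a count of 0 was set to 3 UMIs, and none was taken where both counts were 3 or fewer.

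Of the 5 rule markers, 4 were lower in the stag2b mutant barcodes, which is a description since they chose the cells. krt17 had 1469 CPM in the stag2b mutant and 1840 CPM in wild type, krt92 had 2921 CPM in the stag2b mutant and 4144 CPM in wild type, and the type I cytokeratin genes cyt1 and cyt1l had 7006 and 6215 CPM in the stag2b mutant and 8897 and 9895 CPM in wild type. In keratin-rich barcodes cyt1l was the one of the 5 past 2-fold, at 18064 CPM in the stag2b mutant and 33111 CPM in wild type. agr1, of the anterior gradient family of secretory pathway disulfide isomerases, went the other way, with 632 CPM in the stag2b mutant and 338 CPM in wild type (0.90, 0.82 to 0.98), and 1895 CPM in the stag2b mutant and 1134 CPM in wild type in keratin-rich barcodes.

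The keratins outside the rule differed little or were lower in the stag2b mutant. Of 13 with at least 10 UMIs, 9 lay below the median gene, with a list median of -0.11, and in keratin-rich barcodes 10 of 12 did, with a median of -0.45. krt4 and krt5 had 16675 and 6247 CPM in the stag2b mutant and 17710 and 6289 CPM in wild type. krt5 was thus level in the selected barcodes (-0.01, -0.03 to 0.01) and at -0.24 (-0.26 to -0.22) in the keratin-rich ones. krt8 and krt18a.1, the simple-epithelium pair, had ratios of -0.11 and -0.35, and -0.32 and -0.59 in keratin-rich barcodes.

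krt91 and krt97 were the keratin genes past 2-fold, both lower in the stag2b mutant. They were 2 of 7 with 50 CPM, beside 1.89% of all genes lower. In the keratin-rich barcodes 2 of 8 were lower, beside 3.28% of all genes. krt91 had 1727 CPM in the stag2b mutant and 3264 CPM in wild type (-0.92, -0.96 to -0.88), and krt97 had 89.5 CPM in the stag2b mutant and 175 CPM in wild type (-0.97, -1.14 to -0.81). In keratin-rich barcodes krt91 had 5003 CPM in the stag2b mutant and 10688 CPM in wild type (-1.095) and krt97 had 183 CPM in the stag2b mutant and 472 CPM in wild type. Both were also lower in the stag2b mutant outside the selected barcodes. In barcodes with at least 2 tp63 UMIs krt91 had 195 CPM in the stag2b mutant and 482 CPM in wild type. krt97 had 47.2 CPM in the stag2b mutant and 109 CPM in wild type. In all other kept barcodes krt91 had 30.6 and 71.6 CPM, and krt97 had 7.39 and 16.3 CPM, in the same order. The keratins outside the rule summed there to 704 CPM in the stag2b mutant and 1028 CPM in wild type. In the selected barcodes krt99 stood at 0.35 and krt95 had no UMI. The zebrafish type I keratin genes are close in sequence, and whether reads shared between neighbours moved a single member was not tested.

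Tight junction genes were higher in the stag2b mutant barcodes. Of 20 with at least 10 UMIs, 18 lay above the median gene, with a list median of 0.88. Of the 12 with 50 CPM, 4 were at least 2-fold higher and none lower, against 3.79% and 1.89% of all genes. The genes cldn23a and oclnb, at 31.3 and 26.6 CPM in wild type, passed that filter only through the stag2b mutant and could not be counted as lower. In the keratin-rich barcodes 17 of 20 lay above the median gene, with a list median of 1.16, and 7 of 12 were past 2-fold and none lower, against 11.5% and 3.28% of all genes. cldne, a claudin of the enveloping layer and periderm, had 508 CPM in the stag2b mutant and 222 CPM in wild type (1.196, 1.098 to 1.29), and 1328 CPM in the stag2b mutant and 604 CPM in wild type in keratin-rich barcodes (1.14, 1.02 to 1.25).

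cldn7b and cldnb differed more in the keratin-rich set. cldn7b had 278 CPM in the selected stag2b mutant barcodes and 129 CPM in wild type, and 397 CPM in the stag2b mutant and 70.9 CPM in wild type in keratin-rich ones (2.49, 2.19 to 2.80). It was also higher in the stag2b mutant outside the selected barcodes. In barcodes with at least 2 tp63 UMIs cldn7b had 328 CPM in the stag2b mutant and 179 CPM in wild type. In all other kept barcodes it had 56.9 CPM in the stag2b mutant and 31.1 CPM in wild type. cldnb had 417 CPM in the stag2b mutant and 272 CPM in wild type, and 708 CPM in the stag2b mutant and 224 CPM in wild type in keratin-rich barcodes (1.66, 1.48 to 1.84). f11r.1, which encodes a junctional adhesion molecule, had 263 CPM in the stag2b mutant and 152 CPM in wild type, and 390 CPM in the stag2b mutant and 97.7 CPM in wild type in keratin-rich barcodes. The occludin genes oclna and oclnb had ratios of 1.74 and 1.24 there. oclna and cldne were also higher in the stag2b mutant barcodes with at least 2 tp63 UMIs. They had 75.4 and 12.4 CPM there in the stag2b mutant and 44.9 and 4.41 CPM in wild type. f11r.1 differed less there, at 324 CPM in the stag2b mutant and 291 CPM in wild type. cldni lay below the median gene in both sets, with 408 CPM in the selected stag2b mutant barcodes and 726 CPM in wild type.

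Depth moved with this result. In the keratin-rich barcodes with at least 5000 UMIs (76 in the stag2b mutant and 82 in wild type, with medians of 14241.5 UMIs in the stag2b mutant and 11273.5 UMIs in wild type) the tight junction median was 1.21 and 17 of 20 lay above the median gene. In those with fewer (50 in the stag2b mutant and 92 in wild type, with medians of 2361.5 UMIs in the stag2b mutant and 2018 UMIs in wild type) 6 of 12 did and it was 0.15, beside a median gene at 0.14, and cldne had 39 UMIs in the stag2b mutant and 81 in wild type (-0.25, -0.84 to 0.32). cldnb also changed sign there, on 14 UMIs in the stag2b mutant and 27 in wild type (-0.15, -1.19 to 0.84), and cldn7b did not (1.80, 0.40 to 3.35). The share of barcodes with a cldne UMI was 61.1% in the stag2b mutant and 60.3% in wild type. Thinned to 2000 UMIs each, which left 105 stag2b mutant and 129 wild-type barcodes and left out 21 in the stag2b mutant and 45 in wild type, the share was 52.4% in the stag2b mutant (42.4% to 62.2%) and 38.8% in wild type (30.3% to 47.7%). In barcodes with at least 2 tp63 UMIs, thinned alike, it was 1.37% in the stag2b mutant and 0.868% in wild type. The thinned shares ran in the same direction as the level, with overlapping intervals, and the part of depth in the cldne difference was not tested.

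Desmosome, plakin and adherens junction genes were also higher. Of 17 with at least 10 UMIs, 16 lay above the median gene, with a list median of 0.54, and in the keratin-rich barcodes all 17 measured did, with a median of 0.95. Past 2-fold were ppl and evplb in the selected barcodes and cdh1 and perp in the keratin-rich ones, 2 of 14 each time and none lower. The 2 of 14 in the keratin-rich barcodes is near the 11.5% of all genes called higher there, and in the selected barcodes that share was 3.79%. ppl, whose product periplakin links keratins to the membrane, had 475 CPM in the stag2b mutant and 216 CPM in wild type (1.13, 1.03 to 1.24), and 1297 CPM in the stag2b mutant and 691 CPM in wild type in keratin-rich barcodes (0.91, 0.80 to 1.02). evplb, an envoplakin gene, had 348 CPM in the stag2b mutant and 131 CPM in wild type (1.41, 1.29 to 1.54), and 936 CPM in the stag2b mutant and 425 CPM in wild type in keratin-rich barcodes.

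eppk1, the epiplakin gene, had 524 CPM in the stag2b mutant and 289 CPM in wild type (0.86, 0.77 to 0.95), and 0.68 in keratin-rich barcodes. dspa, a desmoplakin gene, had ratios of 1.02 and 0.98 in the 2 sets. cdh1 had 305 CPM in the stag2b mutant and 228 CPM in wild type, and 376 CPM in the stag2b mutant and 128 CPM in wild type in keratin-rich barcodes (1.55, 1.31 to 1.80). epcam was level in the selected barcodes at 708 CPM in the stag2b mutant and 687 CPM in wild type and differed in the keratin-rich ones at 920 CPM in the stag2b mutant and 411 CPM in wild type (1.16, 1.02 to 1.30). jupa, the plakoglobin gene, had a ratio of 0.41 in both sets.

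Single barcodes weighed less on these genes in the stag2b mutant than in wild type. In the keratin-rich set the leading barcode held 5.80% of the cldne UMIs in the stag2b mutant and 14.4% in wild type, 6.16% of those of cldn7b in the stag2b mutant and 17.9% in wild type, and 5.204% of those of cdh1 in the stag2b mutant and 11.98% in wild type. Without the deepest barcode of each library, at 51452 UMIs in the stag2b mutant and 62458 UMIs in wild type, the keratin-rich list medians were 1.11 for tight junctions and 0.94 for desmosomes and adherens junctions. With at least 5000 UMIs the keratin-rich desmosome list median was 1.04, and in those with fewer it was 0.41, with 8 of 13 above the median gene.

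**Figure D3:**
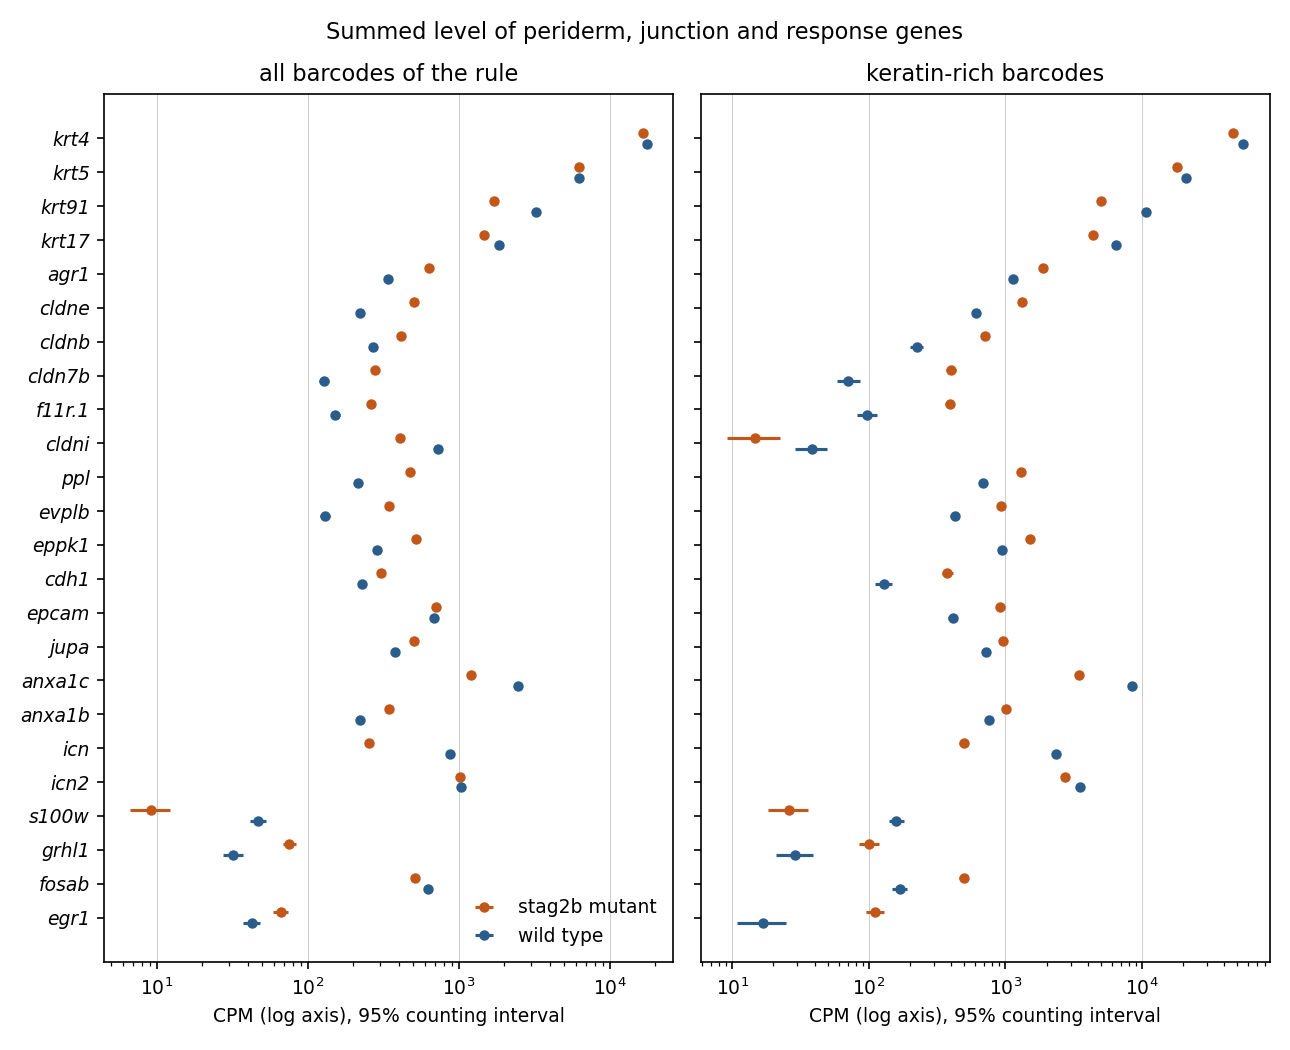
CPM (x axes, log scale) of 24 genes in all selected barcodes (left) and in keratin-rich barcodes (right), with the stag2b mutant above wild type for each gene and bars for 95% counting intervals, many smaller than the point. Claudin, plakin and adhesion genes other than cldni lie to the right in the stag2b mutant, with epcam nearly level in the left panel, krt4, krt91 and krt17 are lower in both panels, as are anxa1c, icn and s100w.

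The annexin, S100 and cornified-layer list split in both directions. In the selected barcodes 4 of 15 genes with 50 CPM were at least 2-fold lower in the stag2b mutant and 1 was higher, and in the keratin-rich ones 6 of 17 were lower and 2 higher, with list medians of 0.04 and -0.04. Of all genes 1.89% were lower and 3.79% higher in the selected barcodes, and 3.28% lower and 11.5% higher in the keratin-rich ones, so the 2 of 17 higher is at the level of all genes. In the selected barcodes s100v2, at 33.95 CPM in wild type, passed the 50 CPM filter only through the stag2b mutant and could not be counted as lower. The same held for tgm1 in the keratin-rich ones, at 24.1 CPM in wild type. The reverse held there for s100w, at 25.9 CPM in the stag2b mutant. anxa1c, one of the annexin A1 genes, had 1206 CPM in the stag2b mutant and 2463 CPM in wild type (-1.03, -1.07 to -0.99), and 3458 CPM in the stag2b mutant and 8492 CPM in wild type in keratin-rich barcodes (-1.30, -1.34 to -1.25). Its neighbour in the family anxa1b went the other way, with 344 CPM in the stag2b mutant and 223 CPM in wild type (0.62, 0.52 to 0.73).

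icn, an ictacalcin gene, showed the same contrast with its relative icn2. icn had 257 CPM in the stag2b mutant and 883 CPM in wild type (-1.78, -1.87 to -1.69), and 494 CPM in the stag2b mutant and 2343 CPM in wild type in keratin-rich barcodes (-2.25, -2.36 to -2.13). icn2 was level at 1020 CPM in the stag2b mutant and 1042 CPM in wild type, and had a ratio of -0.36 in keratin-rich barcodes. 1 stag2b mutant barcode held 34.8% of the keratin-rich icn UMIs of its library, so the stag2b mutant mean leans on that barcode. After thinning to 2000 UMIs, 43 of 105 stag2b mutant barcodes (41.0%, 31.5% to 51.0%) and 121 of 129 wild-type ones (93.8%, 88.1% to 97.3%) had an icn UMI. The shares without thinning were 71.4% in the stag2b mutant and 94.8% in wild type, and those in tp63 barcodes, thinned alike, were 1.33% in the stag2b mutant and 5.61% in wild type.

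s100w was rarer still in the stag2b mutant. It had 37 UMIs in keratin-rich stag2b mutant barcodes, 54.1% of them in 1 barcode, and 238 in wild type (-2.62, -3.16 to -2.12). 15 of 126 stag2b mutant barcodes and 76 of 174 wild-type ones had a UMI, and after thinning 1 of 105 in the stag2b mutant (0.952%) and 29 of 129 in wild type (22.5%). s100a10b and anxa2a, whose products form a complex in mammals, had 275 and 519 CPM in keratin-rich stag2b mutant barcodes and 668 and 932 CPM in wild type. The galectin gene lgals3b had 62.3 CPM in the stag2b mutant and 205 CPM in wild type. Higher were s100v2, at 255 CPM in the stag2b mutant and 92.3 CPM in wild type, and the transglutaminase gene tgm1, at 70.0 CPM in the stag2b mutant and 24.1 CPM in wild type. Outside the selected barcodes s100a10b was lower in the stag2b mutant too. In barcodes with at least 2 tp63 UMIs s100a10b had 18.1 CPM in the stag2b mutant and 117 CPM in wild type. In all other kept barcodes it had 3.65 and 18.2 CPM, in the same order. anxa2a had 18.3 CPM in the stag2b mutant and 12.15 CPM in wild type in the tp63 barcodes.

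The differences of anxa1c, icn and lgals3b had the same sign at both depths. In keratin-rich barcodes with at least 5000 UMIs and with fewer, the ratios were -1.30 and -1.01 for anxa1c, -2.21 and -2.43 for icn and -1.77 and -1.199 for lgals3b. The low level of icn and anxa1c RNA in other barcodes differed the same way, with 3.75 and 6.08 CPM in the stag2b mutant and 10.9 and 12.6 CPM in wild type outside the selected barcodes.

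Other surface genes of the selected barcodes were higher in the stag2b mutant or level. spaca4l, which encodes a predicted membrane protein, had 1701 CPM in the stag2b mutant and 836 CPM in wild type (1.02, 0.97 to 1.08), and 4699 CPM in the stag2b mutant and 2361 CPM in wild type in keratin-rich barcodes. si:ch211-195b11.3 had 1288 CPM in the stag2b mutant and 597 CPM in wild type. capn9 and s100v1 had ratios of 0.38 and 0.40, and 0.13 and 0.19 in keratin-rich barcodes. spaca4l and agr1 differed with depth. In the keratin-rich barcodes with fewer than 5000 UMIs their ratios were -0.21 (-0.47 to 0.04) and -1.08 (-1.55 to -0.63), against 1.02 and 0.79 in the deeper ones.

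Actin and microridge genes showed no common direction in the selected barcodes, with 8 of 14 above the median gene, a median of 0.19 and none of 10 past 2-fold. actb1, actb2, cfl1l (a cofilin gene) and pfn1 (profilin) had ratios between -0.53 and -0.32. All 4 stood higher in tp63 barcodes than in the selected ones, and in keratin-rich barcodes their ratios were between -0.19 and 0.03. The keratin-rich barcodes had 2 of 10 at least 2-fold higher, beside 11.5% of all genes, one of them the alpha-actinin gene actn4 with a ratio of 1.35.

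Secretory and endoplasmic reticulum genes were higher in the keratin-rich barcodes. All 15 measured lay above the median gene, with a list median of 0.80, and 3 of 10 were past 2-fold, beside 11.5% of all genes, and none lower. At fewer than 5000 UMIs 5 of 8 lay above the median gene, with a median of 0.36, and 2 of 7 were higher and 1 lower. With 100 or more marker UMIs the median was 0.45 and 1 of 11 was past 2-fold. pdia3, a disulfide isomerase gene, had 216 CPM in the stag2b mutant and 60.9 CPM in wild type (1.82, 1.48 to 2.18). hspa5, the chaperone BiP, had a ratio of 1.34 and xbp1, a regulator of the secretory pathway, had 0.79. hspa5 had 42.8 CPM in keratin-rich wild-type barcodes. It thus passed the 50 CPM filter only through the stag2b mutant and could not be counted as lower. In all selected barcodes 10 of 16 lay above the median gene, with a median of 0.40, none of 11 was past 2-fold, and xbp1 had the opposite sign (-0.36, -0.46 to -0.27).

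Periderm transcription factor genes were mostly above the median gene, 13 of 16 in both sets, with medians of 0.35 and 0.41. grhl1, a grainyhead-like factor, was the one past 2-fold, of 6 genes with 50 CPM in the selected barcodes and 7 in the keratin-rich ones, where 11.5% of all genes were higher. It had 75.6 CPM in the stag2b mutant and 32.0 CPM in wild type (1.24, 0.98 to 1.502), and 101 CPM in the stag2b mutant and 28.8 CPM in wild type in keratin-rich barcodes (1.81, 1.31 to 2.33). It thus passed the 50 CPM filter only through the stag2b mutant and could not be counted as lower. Its low level in all other kept barcodes differed the same way, at 1.38 CPM in the stag2b mutant and 0.394 CPM in wild type. grhl3 had ratios of 0.73 and 0.41, tfap2a of 0.49 and 0.35, and klf6a of -0.06 and 0.11. At fewer than 5000 UMIs in keratin-rich barcodes, 3 of 9 factors lay above the median gene, and grhl1 had 1 UMI in the stag2b mutant and 2 in wild type, too few to compare.

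**Figure D4:**
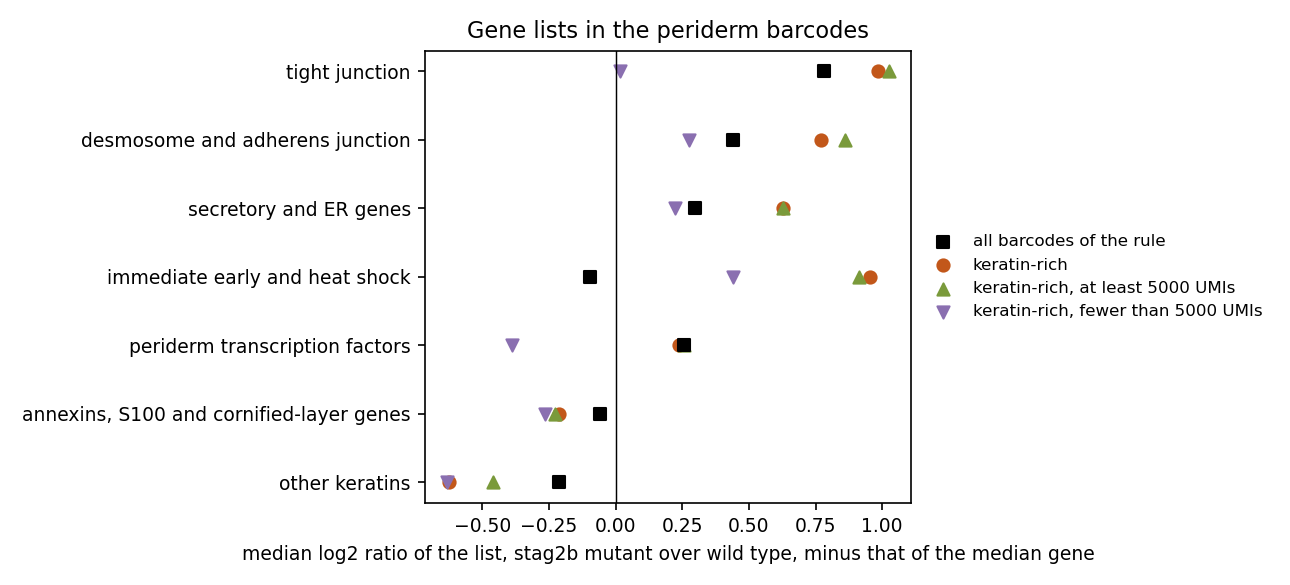
Median log2 ratio of stag2b mutant over wild type for 7 gene lists, less that of the median gene of the same set (x axis), in all selected barcodes (squares), keratin-rich barcodes (circles) and keratin-rich barcodes with at least 5000 UMIs (upward triangles) or fewer (downward triangles). The junction lists lie right of 0 in all 4 sets and nearest to 0 in the shallow one, and the other keratins lie left of 0 in all 4.

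Immediate early genes, which cells transcribe quickly after many kinds of stimulus, differed between the 2 sets. In all selected barcodes none of 20 immediate early and heat shock genes was at least 2-fold higher in the stag2b mutant and 3 were lower, atf3, hsp70.3 and socs3a, and 12 of 28 lay above the median gene. Of all genes 3.79% were higher and 1.89% lower in that set. atf3 and hsp70.3 had 47.6 and 30.5 CPM in the selected stag2b mutant barcodes. They thus passed the 50 CPM filter only through wild type and could not be counted as higher. In the keratin-rich barcodes 9 of 16 were at least 2-fold higher and none lower, with 21 of 26 above the median gene and a list median of 1.13. fosb, egr1 and fosl1a had 10.0, 16.7 and 15.4 CPM in wild type there. They passed the 50 CPM filter only through the stag2b mutant and could not be counted as lower. Of all genes in the keratin-rich barcodes, by the same filter, 11.5% were higher. In those with at least 5000 UMIs the list median was 1.09 and in those with fewer it was 0.58, where 9 genes had at least 10 UMIs, 5 of them above the median gene, and 2 of 9 were past 2-fold. fosab had 517 CPM in the selected stag2b mutant barcodes and 623 CPM in wild type, and 496 CPM in the stag2b mutant and 168 CPM in wild type in keratin-rich ones (1.56, 1.35 to 1.78). egr1 had 66.1 CPM in the stag2b mutant and 42.7 CPM in wild type, and 111 CPM in the stag2b mutant and 16.7 CPM in wild type in keratin-rich barcodes (2.73, 2.12 to 3.40).

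fosb, fosl1a, junba, junbb and ier2b had keratin-rich ratios of 2.93, 2.48, 1.75, 1.52 and 1.64. At fewer than 5000 UMIs fosb had 0 UMIs in the stag2b mutant and 3 in wild type, and junba had 1 in the stag2b mutant and 3 in wild type, too few to compare. The heat shock genes hspa8 and hspb1 did not share this, at 0.03 and -0.56. After thinning to 2000 UMIs, 29 of 105 keratin-rich stag2b mutant barcodes (27.6%, 19.3% to 37.2%) and 14 of 129 wild-type ones (10.9%, 6.06% to 17.5%) had a fosab UMI, and the unthinned shares were 41.3% in the stag2b mutant and 13.8% in wild type. Of tp63 barcodes, thinned alike, 72.4% in the stag2b mutant and 78.1% in wild type had one, above the keratin-rich shares in both libraries. For egr1 the thinned shares were 9.52% in the stag2b mutant and 0.775% in wild type, against 11.9% of stag2b mutant and 14.6% of wild-type tp63 barcodes.

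atf3 had 47.6 CPM in the selected stag2b mutant barcodes and 178 CPM in wild type (-1.90, -2.11 to -1.70). It differed likewise in tp63 barcodes, at 137 CPM in the stag2b mutant and 343 CPM in wild type, and in keratin-rich barcodes its ratio was -0.50 (-0.99 to -0.01). With Scrublet calls left out, the keratin-rich immediate early and heat shock median was 1.45 over 121 stag2b mutant and 165 wild-type barcodes. In the set with 100 or more marker UMIs, where 146 stag2b mutant and 212 wild-type barcodes had cldni at 43.5 CPM in the stag2b mutant and 272 CPM in wild type, the list median was 0.12 beside a median gene at 0.10. cldni moved with the difference between sets, and its part was not tested.

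Few genes of the cell cycle were past 2-fold. None of 20 G2 and M phase genes with 50 CPM was past 2-fold in either set. Of the S phase genes with 50 CPM, 1 of 15 was lower in the selected barcodes and 1 of 16 in the keratin-rich ones, and none was higher. Of all genes 3.79% were higher and 1.89% lower in the selected barcodes, and 11.5% higher and 3.28% lower in the keratin-rich ones. Of the G2 and M phase genes 16 of 26 lay above the median gene in the selected barcodes, with a list median of 0.22, and 20 of 25 in the keratin-rich ones, with a median of 0.50 beside a median gene at 0.17. Of 25 S phase genes 9 did in each set, with a median of -0.01 in both. pcna had 334 CPM in the selected stag2b mutant barcodes and 380 CPM in wild type, rrm2 had 638 CPM in the stag2b mutant and 828 CPM in wild type, and mki67 had 335 CPM in the stag2b mutant and 278 CPM in wild type. The cohesin list had 13 of 16 genes above the median gene, with a median of 0.36 and none past 2-fold. stag2b was at -0.89 (-1.1 to -0.68) in the selected barcodes, beside -0.82 in all other kept barcodes. stag1b had 194 UMIs in the stag2b mutant and 168 in wild type (0.43, 0.13 to 0.74), stag2a had 95 UMIs in the stag2b mutant and 65 in wild type, and stag1a had 71 in the stag2b mutant and 59 in wild type. In keratin-rich barcodes stag1b was nearly level, at 23.8 CPM in the stag2b mutant and 22.75 CPM in wild type. In all other kept barcodes it had 56.0 CPM in the stag2b mutant and 40.6 CPM in wild type. It stayed on one side of the median gene in 10 of 16 alternatives. rad21a had a ratio of 0.35, smc3 of 0.26 and smc1al of 0.07.

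Signalling lists had few genes past 2-fold. In the selected barcodes 1 of 11 Wnt genes was lower and none of 7 Bmp, 8 Fgf and 8 Notch genes was past 2-fold in either direction, beside 3.79% and 1.89% of all genes. The Bmp target genes id1 and id3 had 1106 and 141 CPM in the stag2b mutant and 1645 and 259 CPM in wild type, with ratios of -0.57 and -0.88, and the hairy-related gene her6 had -0.83. All of them were also lower in the stag2b mutant in all other kept barcodes. id1, id3 and her6 had 1269, 108 and 355 CPM there in the stag2b mutant and 1692.5, 222 and 525 CPM in wild type. These genes had more RNA in tp63 barcodes than in the keratin-rich ones, where id1 had 312 CPM in the stag2b mutant and 385 CPM in wild type. In the keratin-rich barcodes 2 Wnt, 3 Bmp, 3 Fgf and 6 Notch genes had 50 CPM. Of these her15.1 was the 1 gene past 2-fold, beside 3.28% of all genes lower there. It had 79.8 CPM in the stag2b mutant and 142 CPM in wild type.

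The somite and blood lists differed between the keratin-rich sets, with many UMIs in single barcodes. Somite and muscle genes summed to 433 CPM in the stag2b mutant and 932 CPM in wild type, and 1 wild-type barcode held 59.7% of the 347 acta1a UMIs, against 8 UMIs in the stag2b mutant. The other muscle genes actc1a and myl10 had 14.0 and 7.70 CPM in the stag2b mutant and 162 and 129 CPM in wild type, where 1 barcode held 28.1% of the actc1a UMIs and 81.9% of the myl10 UMIs. The somite list median was -1.44, and 0.04 with Scrublet calls left out. Blood and endothelial genes summed to 271 CPM in the stag2b mutant and 26.1 CPM in wild type, and 1 stag2b mutant barcode held 95.3% of the 170 hbbe3 UMIs. Neuromesodermal and posterior mesoderm genes summed to 1022 CPM in the stag2b mutant and 1153 CPM in wild type. Basal epidermis genes summed to 292 CPM in the stag2b mutant and 300 CPM in wild type in keratin-rich barcodes, and to 567 CPM in the stag2b mutant and 723 CPM in wild type in all selected ones.

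Of the 8 genes with the widest differences in each direction, 5 in each were also past 2-fold in the rest of the tailbud. In the other kept barcodes 2936 genes were tested, of which 26 (0.886%) were at least 2-fold higher in the stag2b mutant and 48 (1.63%) lower. Of the 114 higher genes of the selected barcodes 19 (16.7%, and 73.1% of the 26) were also higher there, and of the 57 lower genes 23 (40.4%, and 47.9% of the 48) were also lower. csrp1b, a LIM-domain gene, had 107 CPM in the selected stag2b mutant barcodes and 3.48 CPM in wild type (4.94, 4.296 to 5.66), and 84.5 CPM in the stag2b mutant and 5.40 CPM in wild type in all other kept barcodes. vrk3, a kinase gene, had 193 CPM in the stag2b mutant and 15.3 CPM in wild type (3.65, 3.34 to 3.99), and 121 CPM in the stag2b mutant and 22.2 CPM in wild type in the other barcodes. Their ratios in the keratin-rich barcodes were 6.76 (4.89 to 9.81, on 2 wild-type UMIs) and 4.68 (4.04 to 5.41), and a csrp1b UMI was found in 76 of 126 stag2b mutant and 1 of 174 wild-type barcodes.

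si:dkey-102m7.3 had 8.95 CPM in the selected stag2b mutant barcodes and 155 CPM in wild type, and 7.17 CPM in the stag2b mutant and 191.5 CPM in wild type in the other barcodes. gpx4a, rab34b and rcc1l, with ratios of -3.12, -2.50 and -2.41, had -3.34, -2.48 and -2.31 in the other barcodes. lgals1l1 did not follow this pattern, with 15.05 CPM in the stag2b mutant and 86.4 CPM in wild type among the selected barcodes, and 7.89 CPM in both libraries elsewhere. It had 2 UMIs in keratin-rich stag2b mutant barcodes and 1 in wild type, so nearly all of its UMIs were in the barcodes with little keratin.

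slit2, which encodes a secreted guidance protein, was higher in the selected barcodes and level in the others. It had 86.6 CPM in the selected stag2b mutant barcodes and 24.6 CPM in wild type (1.82, 1.54 to 2.104), and 158 CPM in the stag2b mutant and 36.8 CPM in wild type in keratin-rich ones, against 31.3 CPM in the stag2b mutant and 29.9 CPM in wild type in all other kept barcodes. In barcodes with at least 2 tp63 UMIs slit2 had 116 CPM in the stag2b mutant and 81.85 CPM in wild type. It was named after its values were seen. sqstm1, an autophagy receptor gene, was named by the rule for genes that differ from the other barcodes: it had 60.6 CPM in the selected stag2b mutant barcodes and 80.6 CPM in wild type (-0.41), and 15.9 CPM in the stag2b mutant and 52.4 CPM in wild type in the others (-1.72).

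**Figure D5:**
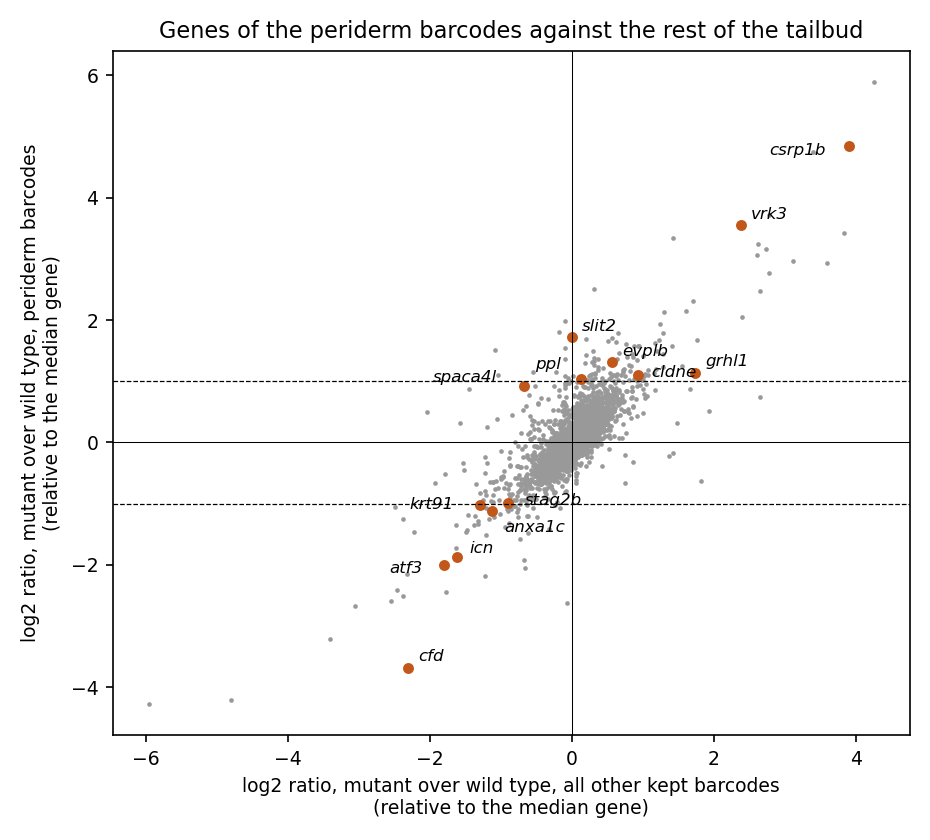
Log2 ratio of stag2b mutant over wild type for the 3011 genes tested in the selected barcodes (y axis) against the ratio in all other kept barcodes (x axis), each less its median gene, with dashed lines at 2-fold and 14 genes marked. csrp1b, vrk3 and cfd lie far from 0 on both axes, and slit2 and ppl lie at or above the upper line with ratios of 0.07 and 0.19 elsewhere.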

How the data were processed

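Tailbuds of 1 stag2b mutant and 1 wild-type pool at 16 h post-fertilization were profiled by 10x single-cell RNA-seq. The deposited files hold raw UMI counts per gene and barcode, which the authors made with Cell Ranger 7.1.0 against GRCz11, counting intronic reads too, with a zebrafish transcriptome annotation. The labels give chemistry v2 and the AB strain. The methods of the study name another kit version and WIK as the wild-type line, and the labels were followed. Nothing had been normalized.

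Rows of the same symbol were summed (27771 gene IDs, 27119 symbols). Counts were summed over the barcodes of each set and given as CPM. Poisson, binomial (Clopper-Pearson) and conditional binomial 95% intervals were exact, cover counting error only, and set the precision along with the depth of 1008 to 69253 UMIs per selected barcode. Genes needed 50 CPM in the higher library to be called, and 10 UMIs to enter a list median. A gene under 50 CPM in wild type thus entered the counts only through the stag2b mutant and could not be counted as lower, and the reverse held too. A log2 ratio at least 2-fold from the median gene was called. Doublets were scored with Scrublet in scanpy 1.11.5 and kept. Other steps used Python 3.11.15, numpy 2.4.6, pandas 2.3.3 and scipy 1.17.1. The ratio step was tested on simulated counts for the selected barcodes, where 198 of 200 genes changed 4-fold were recovered among 2472 and 95.2% of intervals held the true ratio. The counts were Poisson draws from the summed wild-type profile, the error these intervals assume. The run thus checks the calculation only. Spread between barcodes was not simulated, and no change of 2-fold was tried.

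The members and the 26 gene lists were chosen with earlier results of these data known. Named genes were the rule markers and tp63, up to 5 of highest CPM per list, the 8 largest rises and falls, the 6 that differed most in each direction from the other barcodes, the 12 highest over the other barcodes, and the Stag genes. Genes added after their values were seen were acta1a, actc1a, actn4, anxa2a, atf3, cldn23a, dsc2l, dspa, egr1, egr2a, evplb, fosb, fosl1a, grhl3, her1, her7, hsp70.3, hspa5, junba, junbb, krt97, krt99, lgals3b, myl10, oclna, oclnb, perp, s100a10b, s100v2, s100w, si:ch211-195b11.3, slit2, socs3a, spaca4l, tgm1, tjp3 and ubb. Alternatives were other marker minimums, depth and tp63 limits, CPM filters, thinning and library scalings. No sequence is printed.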

Additional observations from a re-analysis of the deposited data

How the results depend on the processing

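With 1 library per genotype nothing could be left out in turn, so the limits are set by the definition of the cells and by depth. No paired analysis was possible because each genotype has 1 library. The sets with markers at 2% or 5% of UMIs, split by depth or by other-lineage UMIs were chosen after seeing the data. The share of selected barcodes was lower in the stag2b mutant under every definition run, all of them based on the same 5 markers. It was 0.883% in the stag2b mutant and 1.72% in wild type with 30 marker UMIs, 0.561% and 1.16% with 100, 0.576% and 0.951% with all 5 markers, 1.14% and 1.90% with no tp63 UMI, and 1.19% and 1.90% with 5000 UMIs. It was 0.484% and 0.951% with markers at 2%, 0.261% and 0.771% at 5%, 0.307% and 0.667% at 2% with fewer than 10 other-lineage UMIs, and 0.292% and 0.448% or 0.192% and 0.503% at 2% with at least or fewer than 5000 UMIs. Thinned to 5000 UMIs before the rule, the stag2b mutant had 1.26% and wild type had 3.30%. Thinning lowers tp63 UMIs too, so barcodes that the tp63 limit left out before could then meet the rule. Wild type had 565 barcodes after thinning, against 437 by the rule. The part of such barcodes was not tested.

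Against 114 higher and 57 lower genes, there were 226 and 94 with 100 marker UMIs, 234 and 87 with all 5 markers, 315 and 90 with markers at 2%, 320 and 95 at 5%, 487 and 138 with few other-lineage UMIs, 320 and 112 in deep and 275 and 238 in shallow keratin-rich barcodes, 289 and 149 at 20 CPM, 50 and 23 at 100 CPM, and 2107 and 1492 with no filter. Thinning gave 92 lower genes. The median gene moved from 0.10 to -0.23 with TMM library sizes, to 0.28 with few other-lineage UMIs and to 0.27 with no filter, which is why lists are read against it. The median of the other keratins was 0.029 with 30 marker UMIs and 0.035 with thinning, -0.28 with all 5 markers, -0.45 at 2%, -0.40 at 5%, -0.72 with few other-lineage UMIs, -0.28 and -0.49 in deep and shallow keratin-rich barcodes, -0.38 with TMM and -0.62 as a mean over barcodes.

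Of 42 named genes past 2-fold, 28 stayed on one side of the median gene in every alternative that gave them a ratio. Not all genes had a ratio in all 16 alternatives, and angptl7 had one in 13. The alternatives mostly reuse the same barcodes, and library scalings shift all ratios along with the median gene. The ratio changed sign with all 5 markers for col14a1a (1.29), frem2a (0.80), lgals1l1 (1.72) and socs3a (1.18), and in shallow keratin-rich barcodes for cfd (0.39), cldne (-0.25), mespab (3.61) and oclnb (-0.37). With few other-lineage UMIs it did so for atf3 (1.35), myf5 (0.63), hsp70.3 (2.67) and socs3a (2.53). With markers at 2%, at 5% and in deep keratin-rich barcodes hsp70.3 was at 0.40, 0.43 and 0.44, and with markers at 2% and in deep ones socs3a was at 0.50 and 0.48. At 5% si:ch211-220m17.4 was at -1.61 and stm at -0.15. col2a1a, which 1 stag2b mutant barcode carried, was at -2.07 with 30 marker UMIs, -5.07 with 100, -3.67 with all 5 markers, -1.35 at 2%, -0.15 at 5%, -1.03 in deep keratin-rich barcodes and -0.79 with thinning. In keratin-rich barcodes col2a1a had 0 CPM in the stag2b mutant and 5.35 CPM in wild type. Its values at 2%, at 5% and in deep ones thus rest on the 3 UMIs set in place of 0. The UMI counts behind the other sign changes are not given here, and some may be small. The cause of these changes was not tested.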
